A study of Mus musculus with 12 samples.

Results

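The conversion of mouse fibroblasts towards muscle by the transcription factor MyoD was examined in cells that carried a control hairpin, on 6 of the 12 arrays of the series. The cells were C3H/10T1/2, an established mouse embryonic mesenchymal line, made to express stably a short hairpin RNA against luciferase (shLuc), which has no target in mouse cells. Retroviral infection with the empty vector pBABE gave 3 samples, and infection with pBABE-MyoD, which encodes MyoD with Flag and myc tags, gave the other 3. From 24 h after infection all 6 cultures were kept for 24 h in medium with 2% horse serum, which favours differentiation, and total RNA was then taken. The other 6 arrays hold the same pair of infections in cells of the same line with a stable hairpin against the homeobox gene Six4 (shSix4), and they serve here only for a comparison of the response. Nothing in the labels says that replicates came from separate infections, so the p-values cover only the variation among these arrays, part of which may be technical. Whether a hairpin line was a clone or a pool is not stated.

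MyoD is a basic helix-loop-helix factor that dimerises with E proteins and binds E-box sequences in the enhancers and promoters of muscle genes. When it is forced on fibroblasts it switches on myogenin, halts division and begins the muscle programme, while parts of the previous programme are turned down. In bulk RNA, fewer cells of a type and less RNA per cell cannot be told apart, and neither can a partial change in every cell and a complete change in some of them.

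Levels are given as log2 of the processed signal over the 75th percentile of the same array, so that 0 is that percentile and a difference of 1 is 2-fold. Each gene was read from a single probe, and levels of different genes are not compared. Each of the 3 slides held 1 array of every group. The position on the slide followed the group exactly, so position and group cannot be told apart, and slide 1 was scanned on another day than slides 2 and 3. Arrays of the same group correlated at 0.972 to 0.992 across genes, and the dimmest of the 6 was empty vector replicate 2, with a 75th percentile of 8.59 (log2 signal) against 9.32 to 9.87 on the others.

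The forced gene and its best known targets were read first, as a check of the labels. Myod1 read -4.71 and -2.49 on the empty-vector arrays that gave a value and 0.14, -0.11 and 1.31 with MyoD, a log2 change of 3.61 ± 0.49 (SE, adjusted p = 0.00226, limma). Empty vector replicate 3 gave no Myod1 value, and the fit used the other arrays. Whether this probe sees the viral transcript, the cells' own gene or both was not examined here. Myog, the gene of myogenin, was at -6.19, -5.21 and -6.18 without MyoD, where it was not well above background, and at 8.18, 7.99 and 7.88 with it. Embryonic myosin heavy chain (Myh3) went from -7.99, -7.40 and -8.43, again not well above background, to 5.41, 5.0 and 5.50. Six4 itself was 1.07 ± 0.26 higher with MyoD (adjusted p = 0.0181), a call that was lost without the slide in the fit (adjusted p = 0.27).

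Of 9 skeletal muscle markers, all were well above background on every MyoD array, and their summed linear signal, in multiples of the array's 75th percentile, was 6.38 to 8.94 with empty vector and 499 to 732 with MyoD. The fibroblast character of the starting cells was also visible: 11 of 12 fibroblast markers were well above background on all empty-vector arrays, and all 12 on all MyoD arrays. Their summed signal was 1409 to 2641 and then 1377 to 1691, and 6 of the 12 were called lower and 1 higher. The higher one, Fap (1.56 ± 0.34), was well above background on 1 of 3 empty-vector arrays. Leukocyte markers summed to 1.01 to 1.37 and then 0.842 to 0.905, with Ptprc, Adgre1, Tyrobp and Laptm5 not well above background on any of the 6 arrays. Endothelial markers summed to 0.183 to 0.308 and then 0.148 to 0.206, with Pecam1, Cdh5, Kdr and Tie1 not above background on any. For epithelial markers the sums were 0.307 to 0.399 and then 0.246 to 0.405, with Epcam and Cldn4 not above background on any. Adipocyte markers summed to 0.486 to 2.45 and then 0.301 to 1.29, without Lep and Cfd, and neuronal markers to 2.53 to 3.71 and then 2.02 to 2.17, without Snap25 and Syt1. The part of these small differences in the results was not tested.

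Across 12287 genes, MyoD was followed by many modest decreases and fewer but far larger increases. A total of 1682 genes were called lower (13.7% of those tested) and 1237 were called higher (10.1%), at an adjusted p under 0.05. For shLuc cells these shares are the background for every count of lower and of higher members here. The median change was -0.66 among the lower genes and 1.12 among the higher ones, against -0.12 over all genes. Only 230 of the lower genes had changed at least 2-fold and 2 at least 4-fold, while 683 of the higher genes had changed at least 2-fold, 358 at least 4-fold and 166 at least 16-fold. These 2-fold counts moved with the processing: the lower one was 120 with normexp background correction, 69 without the slide in the fit and 74 without slide 3, and the higher one was 381 over the 10855 genes with probes above background on all 12 arrays. All fold counts use the fitted changes, also for genes not well above background in 1 group, 133 higher and 20 lower, whose change is only a bound. Some genes counted at 4-fold or 16-fold therefore have smaller bounds, given below. Kndc1, 1 of the 2 genes lower by at least 4-fold, has a bound under 2-fold. Small steps made up much of the lower side, where 599 genes had changed by under 1.5-fold.

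Most of the lower genes stayed detectable. Of the 1682 lower genes, 1568 were still well above background on all 6 arrays, and 20 were above it on no MyoD array. On the higher side 133 genes were above background on no empty-vector array. Among the lower genes 1670 were lower on all 3 slides, and among the higher genes 1226 were higher on all 3. The ranges of the groups did not overlap for 1067 of the lower calls and 1031 of the higher calls. Over all genes tested, non-overlapping groups were found for 1780 lower (14.5%) and 1312 higher (10.7%).

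The lower calls rest on the comparison within slides. Without the slide as a term 163 genes were called lower and 598 higher, so that 78.6% of calls were increases, against 42.4% with it. Without slide 3 there were 96 lower and 529 higher calls. Leaving out any single array gave 714 to 1280 lower and 890 to 1293 higher calls. All 1682 lower genes kept their lower sign in each of these fits. They were chosen as lower on the same arrays that these fits reuse, so the kept sign is a description and no test.

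**Figure D1:**
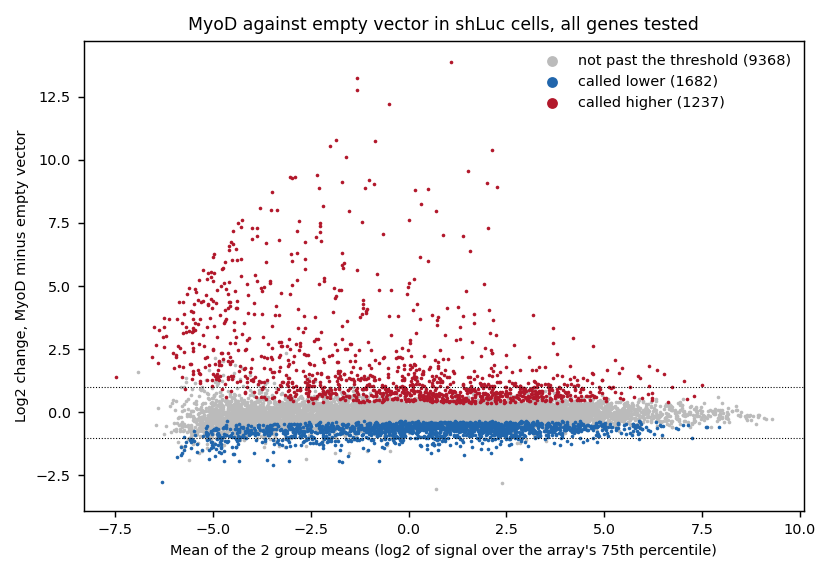
Log2 change with MyoD (vertical axis, MyoD minus empty vector, n = 3 arrays each) against the mean of the group means (horizontal axis, log2 of signal over the array's 75th percentile) for 12287 genes, with dotted lines at a 2-fold change. The 1682 lower genes lie in a narrow band below 0 at all levels, while the 1237 higher genes extend to 13.87 for Myog.

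The 15 genes with the lowest change among those well above background on all 6 arrays had varied roles. Acsbg1, an acyl-CoA synthetase for long fatty acids, read -0.24, -1.16 and -0.79 with empty vector and -2.60, -2.55 and -2.92 with MyoD, a log2 change of -1.96 ± 0.49 (SE, adjusted p = 0.0192). Cldn19, a claudin of tight junctions, went from -1.72, -1.99 and -2.54 to -4.42, -3.65 and -4.01 (-1.94 ± 0.28, adjusted p = 0.00135). In both genes every MyoD array lay below every empty-vector array by more than 1 log2 unit.

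Hp, haptoglobin, which binds free haemoglobin, read -0.19, 0.78 and 0.03 without MyoD and -2.49, -0.94 and -1.74 with it. Meltf, the iron-binding melanotransferrin, read -1.44, -0.47 and -0.55 and then -3.88, -2.04 and -2.31, and both genes changed by -1.93 ± 0.40. S100b, a calcium-binding protein, was among the brighter probes of this set at 3.27, 4.68 and 3.44, and with MyoD it read 1.30, 2.56 and 2.01 (-1.84 ± 0.29, adjusted p = 0.00225). These 3 genes were each lowest on the same MyoD array, that of slide 1, where their empty-vector partners were also the lowest of 3.

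The lipid droplet coat protein Plin4 read 2.89, 3.20 and 2.68 and then 1.03, 1.5 and 1.35 (-1.63 ± 0.23, adjusted p = 0.00112). Kitl, which encodes stem cell factor, was nearly the same on the empty-vector arrays at 2.62, 2.62 and 2.54 and read 0.91, 1.15 and 1.32 with MyoD (-1.47 ± 0.24). Pcolce2, an enhancer of procollagen processing, read -0.59, -0.11 and -0.16 and then -2.09, -1.96 and -1.31 (-1.5 ± 0.26). The range within each group was smaller than the step between the group means in all 3.

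Mgst2, a microsomal glutathione transferase, changed by -1.51 ± 0.25, the keratin Krt15 by -1.61 ± 0.40, the tubby-like gene Tulp2 by -1.57 ± 0.24 and the phosphatase and actin regulator Phactr1 by -1.45 ± 0.27. Il1rn, the antagonist of the interleukin-1 receptor, showed how much slides could differ: it read 0.39, 1.78 and 2.28 without MyoD and -1.99, 0.94 and 1.05 with it. Its groups overlapped, although each slide gave a decrease. Of the 15 genes, 6 also passed the threshold without the slide in the fit.

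**Figure D2:**
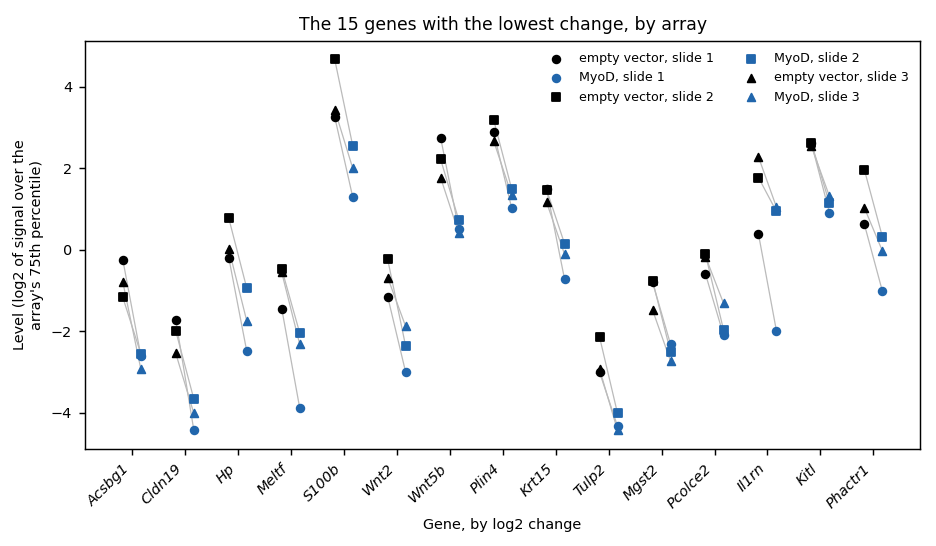
Level on each array (vertical axis, log2 of signal over the array's 75th percentile) of the 15 genes with the lowest change, with empty vector in black, MyoD in blue, a symbol per slide and grey lines joining the 2 arrays of a slide. Every line descends, and the groups overlap for Il1rn alone.

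Some genes fell from a low level to one that was not well above background, so their change is a lower bound against the detection limit of the MyoD arrays. Btc, betacellulin, a ligand of the EGF receptor family, was at least 2.78-fold lower (-4.23, -4.51 and -3.76, then -6.22, -5.88 and -5.96). Stac, an adaptor of voltage-gated calcium channels, was at least 2.76-fold lower, from -3.67, -4.57 and -4.01 to -5.28, -6.43 and -5.71. The secreted carbonic anhydrase Car6 was at least 2.20-fold lower. The bound was 2.24-fold for Sh3tc2, 1.90-fold for the scaffold gene Lin7a, and 1.63-fold for Kndc1 and for the stereocilin gene Strc.

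Genes of the interferon response had the largest share of lower calls among the 31 gene lists from outside muscle. Interferons act through cell surface receptors and JAK kinases, and the factors these switch on bind a short element in the promoters of antiviral genes, many of which have a basal level in fibroblasts. Of 73 tested members, 31 fell (42.5% against the background of 13.7%), 1 rose and 41 did not pass, with a median change of -0.51. The decreases were spread over roles: 9 of 22 sensors and factors, 17 of 39 effectors and 5 of 12 genes of antigen presentation. Groups did not overlap for 28 members on the lower side (background 14.5%). On slides 1, 2 and 3, 65, 61 and 62 members were below 0, with medians of -0.59, -0.56 and -0.54. Of all 12287 genes, 7459, 7443 and 7208 were below 0 (60.2% over the slides), with medians of -0.12, -0.16 and -0.09. These all-gene values are the background for every count below 0 on a slide here.

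Among the effectors, Ifit3, an antiviral tetratricopeptide protein, read 1.38, 1.20 and 1.12 with empty vector and 0.07, 0.05 and -0.19 with MyoD (-1.26 ± 0.20, adjusted p = 0.00243). Oas1c, of the family of oligoadenylate synthetases, read -0.90, -0.82 and -1.04 and then -2.32, -1.70 and -2.10 (-1.12 ± 0.17, adjusted p = 0.00158). Both kept their call without the slide in the fit. Ifit1, a neighbour of Ifit3 that binds viral RNA, read -2.46, -0.62 and -0.63 and then -3.91, -1.61 and -1.64 (-1.15 ± 0.31), with overlapping groups because slide 1 was low in both. Trim30a changed by -1.70 ± 0.47 and was well above background on 1 of the 3 MyoD arrays. Probes of Ifit and Oas genes can bind RNA of close copies.

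Smaller steps followed through the pathway. The RNA sensors Ddx58 (RIG-I), Ifih1 (MDA5) and Dhx58 changed by -0.99, -0.90 and -0.85, and the double-stranded RNA sensor Tlr3 by -0.71. The factor Irf7 changed by -0.91 and the kinase Jak2 by -0.60. The ubiquitin-like modifier Isg15 changed by -0.90 and the guanylate-binding protein Gbp2 by -1.01. In antigen presentation the class I genes H2-K1 and H2-T23 changed by -0.72 and -0.71 and the loading protein tapasin (Tapbp) by -0.89, and all of these were called.

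Other members of the same machinery did not pass the threshold: Stat2 was at -0.37, Irf9 at -0.66, the receptor chains Ifnar1 and Ifnar2 at -0.14 and -0.44, and B2m at 0.14. The member that rose, Trim25, a ubiquitin ligase that acts on RIG-I, was not well above background on any empty-vector array and was at least 3.03-fold higher with MyoD. It read -7.84, -7.58 and -8.57 and then -4.39, -4.30 and -4.15. In shSix4 cells the median of the 73 members was -0.36 and 5 of them fell, where 2.16% of all genes did. Without the slide in the fit 3 members were called lower, without slide 3 there were 5, and leaving out any single array left at least 12. No list outside muscle had over 5 lower calls in either of the first 2 of these fits.

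The promoters of the lower interferon genes carried the interferon element often. Among 9864 tested genes with a promoter in the RefSeq table (GRCm38.p6, promoters of 300 bases around the start), the core of the interferon-stimulated response element stood in 2.92%, and in 3.49% of all promoters of the table. The core was searched on either strand as GAAA, any 2 bases and GAAA again. It was found in 38.7% of the 62 interferon list promoters and in 57.1% of the 28 whose genes fell. Among all lower genes the share was 4.36%, and 8.77% among those lower by at least 2-fold. Both of these last sets include genes of the interferon list, which gave 16 of the 58 matches among all lower genes. The 3 stretches shown are upstream of the start of the called members with the lowest change that were well above background on all 6 arrays, with the cores in capitals. On the strand printed they read in reverse complement, with TTTC at both ends.
Ifit3, chr19:34583362-34583461, plus strand: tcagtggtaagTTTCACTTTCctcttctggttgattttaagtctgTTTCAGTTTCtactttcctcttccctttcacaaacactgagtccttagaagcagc
Ifit1, chr19:34640759-34640858, plus strand: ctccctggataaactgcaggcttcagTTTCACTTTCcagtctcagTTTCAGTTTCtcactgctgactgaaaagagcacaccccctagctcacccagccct
Oas1c, chr5:120812568-120812667, minus strand: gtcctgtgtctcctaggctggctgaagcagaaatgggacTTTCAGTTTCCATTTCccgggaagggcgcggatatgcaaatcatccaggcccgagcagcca

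In Ifit3 and Ifit1 a pair of cores stood apart, and in Oas1c they overlapped. The search list also held the AP-1 motif TGANTCA and the TATA box TATAAA. They were found in 12.3% and 13.5% of promoters of genes lower by at least 2-fold, against 5.08% and 8.34% of all tested genes. On the higher side the shares were 7.07% and 12% at 2-fold or more, and 8.66% and 18.1% at 16-fold or more. A raised share of the TATA box was thus not particular to the lower genes. A match is a description of letters in this window and not of binding.

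Antioxidant and xenobiotic genes had the next largest share of lower calls. Many of them are driven by the stress factor NRF2, and they make glutathione conjugates, reduce quinones or oxidise drugs, retinoids and aldehydes. Of 77 tested members 30 fell (39.0%), 6 rose and the median was -0.40. Among targets of NRF2 10 of 25 fell, and among glutathione transferases, cytochromes and related enzymes 20 of 52 fell. Medians on the 3 slides were -0.41, -0.40 and -0.37, but without the slide in the fit 5 members were called lower, and without slide 3 there was 1.

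Glutathione transferases of the microsomal, theta and mu subfamilies fell, and most of the others did not pass the threshold. The microsomal Mgst2, Mgst3 and Mgst1 changed by -1.51, -1.06 and -0.67, the theta genes Gstt1, Gstt3 and Gstt2 by -1.08, -0.77 and -0.55, and the mu genes Gstm1, Gstm2, Gstm5 and Gstm4 by -0.82, -0.69, -0.66 and -0.51. Probes of mu genes can bind RNA of neighbouring copies. Gstm3, at -0.54, did not pass. Of the alpha genes Gsta4 fell, at -0.67, while Gsta1 and Gsta2 were at -0.15 and -0.02 and did not pass. The pi gene Gstp1 (-0.19), the omega genes Gsto1 (-0.36) and Gsto2 (-0.24) and the zeta gene Gstz1 (-0.50) did not pass either. The quinone reductase Nqo1 (-0.90), sulfiredoxin Srxn1 (-0.66), Keap1 (-0.60) and NRF2's own gene Nfe2l2 (-0.37) also fell. In the pentose phosphate pathway the NADPH-producing enzymes G6pdx (-0.73) and Pgd (-0.48) and the transketolase Tkt (-0.66) fell as well. Other textbook NRF2 targets did not pass, with Hmox1 at -0.17, Gclm at -0.18, Gclc at -0.03 and Txnrd1 at 0.26.

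Retinoid and alcohol enzymes went in both directions. Adh1, an alcohol dehydrogenase that also oxidises retinol, read -0.75, -1.20 and -1.28 and then -2.64, -2.10 and -2.35 (-1.29 ± 0.28). Cyp26b1, which breaks down retinoic acid, changed by -1.45 ± 0.45 with 1 MyoD array missing. The aldehyde dehydrogenases Aldh1a7 (1.85 ± 0.29) and Aldh1a1 (0.95) and the flavin monooxygenase Fmo1 rose. Fmo1 read -0.83, -0.49 and 0.01 and then 1.88, 1.97 and 2.22, a change of 2.46 ± 0.34.

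**Figure D3:**
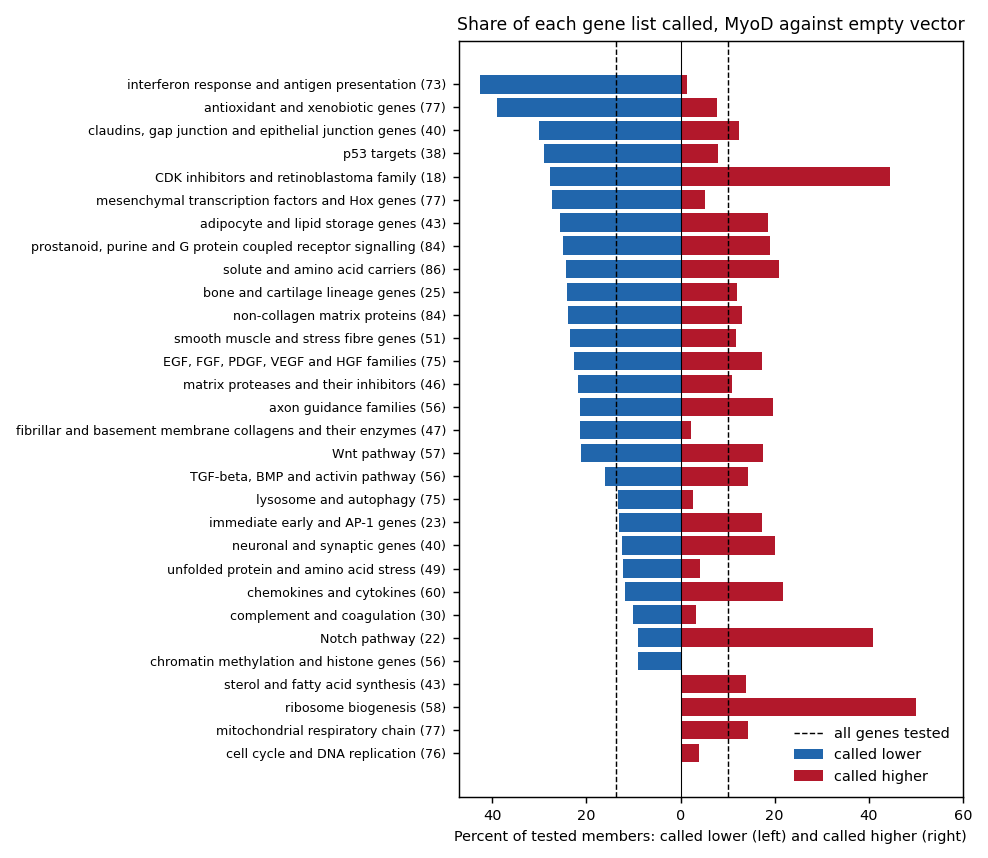
Percent of the tested members of the gene lists shown that were called lower (left, blue) or higher (right, red), with the number of tested members in brackets and dashed lines at the shares over all genes tested (13.7% and 10.1%). Interferon and antioxidant genes extend furthest left at 42.5% and 39.0%, and ribosome biogenesis furthest right at 50%.

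Among transcription factors of connective tissue more members fell than rose, and most did not pass. Of 65 tested mesenchymal factors 20 fell (30.8%), 4 rose and 41 did not pass, and of 12 Hox genes 1 fell. The repressor of epithelial genes Snai2 read 4.82, 5.53 and 4.82 and then 3.91, 3.54 and 4.19 (-1.18 ± 0.25, adjusted p = 0.00934), with no overlap of the groups. Hoxa2, which patterns the second branchial arch, read 0.61, 1.46 and 1.80 and then -0.62, 0.40 and 0.74 (-1.11 ± 0.14), lower by a similar step on each slide although the groups overlapped. The limb and skeletal factors Prrx1, Twist1, Twist2, Runx2, Sox9, Dlx5 and Meis1 changed by -0.70, -0.58, -0.58, -0.70, -0.85, -0.94 and -0.65, all called. Without the slide in the fit 3 members of the whole list were called lower.

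Against this, Scx, the factor of tendon progenitors, rose: it read 2.93, 2.22 and 1.76 and then 5.90, 4.58 and 4.71 (2.76 ± 0.31, adjusted p = 0.000249). Klf5 (1.72 ± 0.13), Runx1 (0.89 ± 0.18) and the E protein Tcf12 (0.62 ± 0.16), a dimer partner of MyoD, rose as well. The 2 lowest changes among the tested genes did not pass the threshold. Ebf1 (-2.81) and Narf (-3.05), both picked out after their values were seen, rested on empty vector replicate 2. There they read 8.39 and 8.21, while the other empty-vector arrays read 0.38 and 2.60 for Ebf1 and -0.93 and -0.62 for Narf.

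Matrix genes fell in part. Of 47 collagens and their enzymes 10 fell (21.3%) and 1 rose, of 84 other matrix proteins 20 fell (23.8%) and 11 rose, and of 46 matrix proteases and inhibitors 10 fell and 5 rose. Lumican (Lum), a proteoglycan that spaces collagen fibrils, read 1.1, 1.87 and 1.26 and then -0.15, 0.42 and 0.18 (-1.26 ± 0.28). Spon2 changed by -1.27 ± 0.24, the cartilage protein Comp by -1.16 ± 0.20 and the pericyte proteoglycan Cspg4 by -0.99 ± 0.17. Among collagens the change was -1.0 ± 0.25 for Col11a1 and -0.93 ± 0.30 for Col6a2, and Col1a1 was at -0.24 (adjusted p = 0.26). The protease inhibitor Reck changed by -0.97 ± 0.22, and the serine protease Htra1 by -0.90 ± 0.16.

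Increases in the matrix lists included 2 laminins. The laminin chain Lama5 read -0.07, -0.73 and -0.99 and then 2.70, 2.21 and 2.45 (3.05 ± 0.30), and Lama2, the chain of muscle basement membrane, rose by 2.10 ± 0.33. The metalloprotease Adam8 read -0.54, -0.17 and -0.48 and then 3.35, 2.99 and 2.66 (3.40 ± 0.28, adjusted p = 2.86e-05). Col26a1 was the collagen that rose, by 4.85 ± 0.35.

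Growth factor genes changed in both directions. The EGF, FGF, PDGF, VEGF and HGF families had 75 tested members. Of 37 ligands 9 fell (24.3%) and 4 rose (10.8%), and of 23 receptors 7 fell (30.4%) and 3 rose (13%). Of 15 feedback genes 6 rose (40%, against 10.1% of all genes) and 1 fell. Vegfd, a lymphatic growth factor, read 3.77, 4.01 and 3.39 and then 2.27, 2.24 and 2.65 (-1.34 ± 0.22, adjusted p = 0.00261). Fgf7, a fibroblast product that acts on epithelia, changed by -1.23 ± 0.36 and Angptl4, which blocks lipoprotein lipase, by -1.26 ± 0.29. Pdgfra, the receptor that marks fibroblasts, was at -1.21 (adjusted p = 0.0227). The feedback inhibitors of receptor tyrosine kinases Spry4 (4.35 ± 0.45, with 1 of 3 empty-vector arrays well above background and 1.85 to 4.83 over the alternatives), Spry1 (2.47 ± 0.18) and Dusp4 (2.76 ± 0.28) rose, and so did the endocrine factor Fgf21 (2.89 ± 0.44).

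Wnt genes also changed in both directions. Of 57 tested members 12 fell (21.1%) and 10 rose (17.5%), and of 9 ligands 3 fell and 1 rose. The ligands Wnt2, at -1.14, -0.23 and -0.68 and then -3.0, -2.36 and -1.88, and Wnt5b, at 2.75, 2.22 and 1.77 and then 0.52, 0.74 and 0.42, were among the 15 lowest genes, with changes of -1.73 ± 0.45 and -1.68 ± 0.30. The secreted antagonists Frzb and Sfrp1 fell by 1.51 and 0.93 on the log2 scale, with Frzb well above background on 1 of 3 MyoD arrays. The feedback genes of the pathway Axin2 and Nkd1 rose: Axin2 was above background on no empty-vector array and was at least 4.49-fold higher, and Nkd1 rose by 1.37 ± 0.30. Kremen2, a receptor for Dickkopf antagonists, was at least 5.86-fold higher.

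Lipid storage genes moved both ways, with 11 of 43 lower and 8 higher. Acsbg1, Plin4 and Angptl4, described above, fell, and the fasting-induced factor Klf15 fell by 1.94 on the log2 scale with 1 of 3 MyoD arrays well above background. The fatty acid transporter Cd36 was at least 3.51-fold higher, and lipoprotein lipase (Lpl) rose by 2.23 ± 0.20, with 2 of 3 empty-vector arrays well above background. The uncoupling protein Ucp2 rose by 2.72 ± 0.27, with 1 of 3 empty-vector arrays well above background, and the lipase inhibitor G0s2 by 1.77 ± 0.20.

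Junction genes and stress fibre genes had 12 of 40 and 12 of 51 members lower. Gjb5, a connexin, read -0.00, 0.30 and -0.30 and then -1.38, -1.13 and -1.56 (-1.36 ± 0.22). The caveolin Cav2 changed by -0.95 ± 0.11 and the LIM protein Csrp2 by -1.02 ± 0.17. Cartilage genes were lower in 6 of 12 cases, and of 13 bone genes none was called lower and 1 was called higher (limma, 2 lower at an unadjusted p under 0.05). The sulphate donor enzyme Papss2 (-0.99 ± 0.18) and Trps1 (-0.94 ± 0.19) fell, while Ucma, a secreted cartilage protein, rose by 7.08 ± 0.74.

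Stress and damage pathways varied in their shares. Of 38 p53 targets 11 fell (28.9%) and 3 rose (7.89%). Sesn3 (-1.13 ± 0.13) and Perp (-1.05 ± 0.19) were among those that fell, while Cd82, a tetraspanin, rose by 3.32 ± 0.27. Cdkn1a (1.36 ± 0.12) and Gadd45a (0.88 ± 0.23), also targets of p53, were not in this list and were called higher. Of 49 genes of the unfolded protein and amino acid stress responses 6 fell (12.2%), with Trib3 at -1.07 ± 0.32, Atf5 at -1.06 ± 0.23 and Ddit3 at -0.90 ± 0.26. Of 75 lysosome genes 10 fell (13.3%), with steps no larger than the -0.86 ± 0.18 of Ids, whose other probe read 0.05. Of 30 complement and coagulation genes 3 fell, of 56 chromatin genes 5, and of 56 genes of TGF-beta, BMP and activin signalling 9. The largest called decrease of a chromatin gene was -0.73 ± 0.13, for the Polycomb protein Cbx6.

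Signalling receptors and carriers changed in both directions. Of 84 genes of prostanoid, purine and G protein signalling 21 fell (25%) and 16 rose (19%), with Pde5a, which degrades cyclic GMP, at -1.30 ± 0.29, and the G protein regulators Rgs17 and Rgs16 at -1.13 ± 0.14 and 6.31 ± 0.44. Rgs16 passed detection on only 1 of the 3 arrays with empty vector, and its change ran from 3.51 to 6.84 over the alternatives. The cannabinoid receptor Cnr1 rose by 3.77 ± 0.23 and prostaglandin D synthase Ptgds by 3.33 ± 0.28, each with 2 of 3 empty-vector arrays well above background. Of 86 carriers 21 fell (24.4%) and 18 rose (20.9%), with the monocarboxylate carriers Slc16a4 and Slc16a6 going apart, at -1.41 ± 0.24 and 3.08 ± 0.34.

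Large increases were also found outside the muscle lists. Within the muscle lists 56 of 71 sarcomere genes, 30 of 44 genes of excitation-contraction coupling and the neuromuscular junction, 17 of 23 of muscle energy metabolism and 17 of 24 myogenic factors rose. The count for muscle energy metabolism includes the fusion gene Mymk, which the fusion list holds as well. In the fifth, of myoblast fusion and muscle adhesion, 9 of 24 rose (37.5%) and 3 fell, with a median of -0.08. Outside them, Igf2, the growth factor that myoblasts secrete as they differentiate, read -3.28, -1.54 and -1.79 and then 6.08, 6.90 and 7.12 (8.91 ± 0.36, adjusted p = 2.58e-07). Its binding protein Igfbp5 read -5.29, -4.46 and -4.53 and then 0.21, 0.51 and 0.64 (5.22 ± 0.22). Several of these genes are known from muscle although they stood in none of the lists.

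Fndc5, the precursor of the secreted peptide irisin, rose by 7.61 ± 0.44, and Car3, a carbonic anhydrase of slow muscle, by 6.31 ± 0.27. The transcriptional regulators Ppargc1b, a coactivator of mitochondrial genes, and Casz1, a zinc finger protein, rose by 5.63 ± 0.17 and 5.33 ± 0.28. Rragd, a Rag GTPase that brings mTORC1 to the lysosome, read -2.35, -3.46 and -2.80 and then 2.45, 1.75 and 1.76 (4.86 ± 0.18). Adcyap1r1, the receptor of the neuropeptide PACAP, rose by 5.10 ± 0.24, the kinase Dapk2 by 4.83 ± 0.27, the reticulon Rtn2 by 4.95 ± 0.26, Dbndd1 by 5.27 ± 0.23 and Parm1 by 5.08 ± 0.32.

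Genes with no reading well above background in the empty-vector cells have only a lower bound. Hjv, the BMP co-receptor hemojuvelin, was at least 187-fold higher, Frmpd1 at least 182-fold, the co-repressor Cbfa2t3 at least 70.3-fold and the ergothioneine transporter Slc22a4 at least 59.5-fold. The kinase of splicing factors Srpk3 was at least 43.4-fold higher, the nuclear pore protein Nup210 39.7-fold, Gatm of creatine synthesis 38.6-fold and the actin-binding Abra 38.4-fold.

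The E-box CAGCTG, read the same on both strands, stood in 15% of the promoters of all 9864 tested genes in the table and in 16.1% of the whole table. It was found in 25.9% of the 509 promoters of genes higher by at least 2-fold, in 33.9% of the 127 of genes higher by at least 16-fold and in 23.7% of the 422 of genes higher by at least 2-fold outside the muscle lists. Among lower genes the share was 14.4%, and 20.5% among those lower by at least 2-fold. The related CACCTG was found in 17.1% of all, 20.2% of genes higher by at least 2-fold and 14.7% of lower genes, and the general form CANNTG, which includes both, in 63.6%, 72.5% and 63.8%. The 5 stretches shown are upstream of genes named above from outside the muscle lists, each with a pair of CAGCTG in capitals, picked for that pair.
Cbfa2t3, chr8:122699163-122699258, minus strand: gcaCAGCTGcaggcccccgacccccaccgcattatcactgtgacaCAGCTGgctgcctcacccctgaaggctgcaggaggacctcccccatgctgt
Frmpd1, chr4:45184683-45184778, plus strand: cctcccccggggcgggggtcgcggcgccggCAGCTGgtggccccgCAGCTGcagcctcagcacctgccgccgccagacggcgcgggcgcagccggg
Srpk3, chrX:73774282-73774377, plus strand: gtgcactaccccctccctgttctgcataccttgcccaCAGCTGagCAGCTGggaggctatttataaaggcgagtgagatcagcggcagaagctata
Kremen2, chr17:23745830-23745924, minus strand: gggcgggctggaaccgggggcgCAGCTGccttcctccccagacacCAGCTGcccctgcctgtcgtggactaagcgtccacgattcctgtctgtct
Ptgds, chr2:25469816-25469911, minus strand: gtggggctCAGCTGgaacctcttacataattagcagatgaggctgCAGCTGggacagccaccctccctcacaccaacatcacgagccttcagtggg

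Among ribosome biogenesis genes every call was an increase, and as many members did not pass. These genes make RNA polymerase I and the nucleolar factors that process ribosomal RNA, and they usually track growth. Of 58 tested members 29 rose (50%, against 10.1%), none fell and the median was 0.55. At an unadjusted p under 0.05 limma gave 41 higher and 2 lower. On slides 1, 2 and 3 the medians were 0.63, 0.53 and 0.50, and 7, 10 and 8 members were below 0. Groups did not overlap for 32 members on the higher side (background 10.7%).

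The RNA methyltransferase Nop2 was nearly constant within groups, at 3.46, 3.44 and 3.48 and then 4.89, 4.65 and 4.77 (1.31 ± 0.15, adjusted p = 0.000276). Rrp12 read -1.90, -2.71 and -3.22 and then -0.15, -1.60 and -1.74 (1.45 ± 0.18), Bop1 rose by 1.09 ± 0.18 and nucleostemin (Gnl3) by 1.08 ± 0.15. Of the polymerase I subunits and factors Polr1a, Polr1b and Polr1e changed by 0.85, 0.90 and 0.89 and Rrn3 by 0.57, all called, while Polr1c at -0.38 and Ubtf at -0.25 did not pass. The methyltransferase fibrillarin (Fbl) and dyskerin (Dkc1) rose by 0.76 and 0.89, and nucleolin (Ncl) and Npm1 were at 0.29 and -0.02. Without the slide in the fit 12 members were called higher, without slide 3 there were 4, and leaving out any single array left at least 20. In shSix4 cells 12 members rose, where 5.80% of all genes did, with a median of 0.36.

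Mitochondrial and sterol genes were called higher at shares near the 10.1% over all genes. Of 77 respiratory chain genes 11 rose (14.3%) and none fell (limma, 1 lower at an unadjusted p under 0.05), led by cytochrome c1 (Cyc1, 1.1 ± 0.12) and cytochrome c (Cycs, 1.01 ± 0.22). Their medians by slide were 0.33, -0.08 and 0.39, so that slide 2 differed, and without the slide in the fit 2 were called. Of 43 sterol and fatty acid synthesis genes 6 rose (14%) and none fell (limma, 5 lower at an unadjusted p under 0.05), and without the slide in the fit 1 was called higher. Squalene synthase Fdft1 read 3.14, 2.49 and 2.27 and then 3.91, 3.34 and 3.27 (0.87 ± 0.16), and Dhcr7, of the last step to cholesterol, rose by 0.69 ± 0.16. In shSix4 cells none of the 43 rose (background 5.80%, limma, also none at an unadjusted p under 0.05), the median was -0.08 against 0.17 here, and Fdft1 was at 0.18, but the difference between the lines passed the threshold for no gene.

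The slides also disagreed for cell cycle genes. Of 76 tested members 3 rose and none fell, with a median of 0.02 (limma, 6 higher and 0 lower at an unadjusted p under 0.05). On slide 1 the median was -0.26 and 68 members were below 0, on slide 2 it was 0.10 with 30 below 0, and on slide 3 it was 0.28 with 7 below 0. E2f2 stood apart from the list, at -0.30, -1.46 and -1.49 and then 3.59, 2.67 and 2.93 (4.15 ± 0.25, adjusted p = 4.26e-06). Inhibitors of division changed in both directions. Cdkn1a, p21, read 3.89, 3.77 and 3.67 and then 5.40, 4.85 and 5.16 (1.36 ± 0.12), Rb1 rose by 2.20 ± 0.18, and Cdkn1c, p57, was at least 17.9-fold higher. Cdkn2b (-0.81 ± 0.14), Rbl2 (-0.58 ± 0.16), Cdkn1b (-0.48 ± 0.11) and Cdkn2a (-0.46 ± 0.14) fell. The list of 18, which also holds Gadd45, Btg and E2f genes, split into 8 higher and 5 lower. Among the 8 higher were Gadd45a, Gadd45b, Gadd45g, Btg1 and E2f4, and the CDK inhibitors called higher were Cdkn1a and Cdkn1c.

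**Figure D4:**
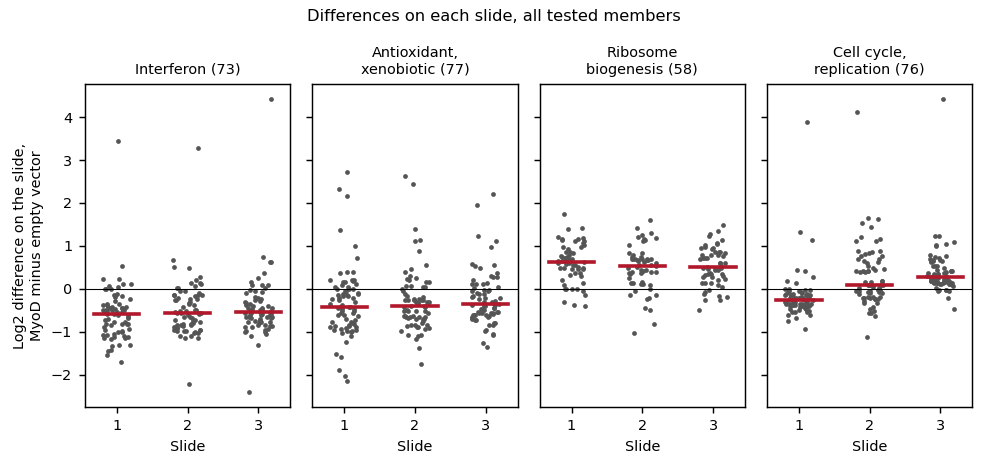
Log2 difference between the MyoD and the empty-vector array of each slide (vertical axis) for every tested member of 4 lists, with the median as a red bar and the number of members in brackets. The medians of interferon and antioxidant genes lie below 0 and that of ribosome biogenesis genes above 0 on all 3 slides, while the median of cell cycle genes runs from -0.26 on slide 1 to 0.28 on slide 3.

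Notch, guidance, neuronal and cytokine genes contributed further increases, at shares to be read against the 10.1% over all genes. Of 22 Notch genes 9 rose and 2 fell: the ligand Dll1 read -4.85, -4.33 and -4.43 and then 1.31, 0.87 and 1.31 (5.70 ± 0.27), Jag2 was at least 6.03-fold higher, and the basic helix-loop-helix genes Hey1 and Hes6 rose by 2.86 ± 0.30 and 2.61 ± 0.20. Among semaphorins and plexins 7 of 25 rose and 2 fell, with Sema6a at least 16.5-fold higher. Among ephrins and their receptors the balance was the other way, with 6 of 16 lower, including Efna1 (-1.07 ± 0.19) and Ephb6 (-1.09 ± 0.24), and 1 higher, Ephb1 (at least 7.30-fold).

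Of 60 cytokine and chemokine genes 13 rose (21.7%) and 7 fell (11.7%, near the 13.7% over all genes). The chemokine receptor Cxcr4 was at least 24.9-fold higher, and the interleukin Il6 rose by 3.0 ± 0.35, with 2 of 3 empty-vector arrays well above background. Flt3l, a growth factor of blood cells, and Il11ra1, a receptor chain, fell by 1.09 and 0.91 on the log2 scale. The intermediate filament gene Nes, which myoblasts also express, rose by 3.89 ± 0.18. In the list of 40 neuronal genes 8 rose (20%) and 5 fell (12.5%, also near the background), the latter by no more than the -0.59 ± 0.17 of Stmn2. One of them, Vamp2, had other probes of opposite sign, and its own change of -0.49 turned to 0.069 in the mean of its probes. Immediate early genes went both ways, with Egr2 (2.22 ± 0.36) and Junb (0.79 ± 0.16) higher and Nr4a2 (-0.77 ± 0.19) and Fosl2 (-0.53 ± 0.12) lower.

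The same genes were then read in the shSix4 cells, whose 6 arrays share no RNA with the shLuc arrays but share the slides and the estimate of spread. There 266 genes were called lower (2.16%) and 713 higher (5.80%). Of the 1682 genes lower in shLuc cells, 1626 had a lower sign, 242 were called lower and none was called higher (4 at an unadjusted p under 0.05, limma). Their median was -0.38 against -0.66 in shLuc cells. Over all genes the median in shSix4 cells was -0.05, so a lower sign was the more common one there. Of the 230 that were lower by at least 2-fold, 216 had a lower sign and 85 were called, with medians of -0.75 and -1.16. The genes were chosen on the shLuc values, so these sign counts and medians are a description and no test.

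Of the 1237 genes higher in shLuc cells, chosen in the same way, 1219 had a higher sign and 656 were called higher. The difference of the response between the lines passed the threshold for no gene (limma, smallest adjusted p = 0.137), with 745 genes at an unadjusted p under 0.05, 193 of them among the lower genes and 372 among the higher. The genes of this text with the smallest unadjusted p were Stac and Ephb1, whose changes in shLuc cells are known only as bounds, so no size is given for the difference. A p that misses the threshold does not show that the lines responded alike.

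**Figure D5:**
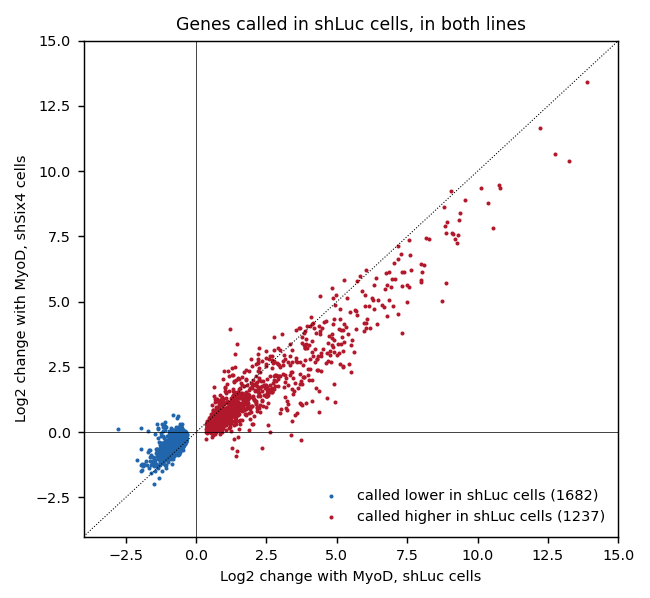
Log2 change with MyoD in shLuc cells (horizontal axis) and in shSix4 cells (vertical axis) for the 1682 genes called lower (blue) and the 1237 called higher (red) in shLuc cells, with a dotted line where both are equal. Most points lie in the quadrants of equal sign, 1626 of the lower and 1219 of the higher genes.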

How the data were processed

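RNA from 12 samples was hybridised to 1-colour Agilent arrays, and the deposited scanner files give spot intensity. Per the file headers, the authors' Agilent Feature Extraction was version 11.5.1.1, and per the submitters' processing notes it was 10.5.1.1. It subtracted background and adjusted the processed intensity before deposit. The authors' deposited normalized table, on a log2 scale with unstated centring (column medians 8.66 to 8.72), was an alternative. A description label names another cell line and stages, contradicts the other labels and was not used.

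Spots marked as outliers and control spots were left out, spots of a probe were averaged, and log2 processed intensity was centred on each array's 75th percentile. Probes were kept where every array of some group read well above background (23952 of 41174), and the brightest named probe stood for each of 12287 genes. Names come from the array design, with 16330 probes unnamed. Missing spots left 155 gaps in 145 genes, which the fit omits, and no spot was saturated. limma 3.58.1 in R 4.3.3 fitted a mean per group over all 12 arrays with slide as a block, moderated with eBayes (6 residual degrees of freedom), and p-values were adjusted over all genes by Benjamini-Hochberg at a threshold of 0.05. The number of arrays limits the precision.

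Replicate numbers equal the slides. Deviations from the group means correlated at 0.740, 0.319 and 0.623 between same-numbered shLuc arrays and at -0.60 to 0.27 between others. Deviations cancel within a group of 3, which by itself lowers the values between others. Arrays were therefore paired by slide in the fit, and a shared slide and a shared culture cannot be told apart. On simulated data for the main comparison over 12287 genes the fit recovered 97 of 100 planted changes of log2 2 and 75 of 100 of log2 1, with 11 false calls. The simulated noise was independent between genes, with slide effects of the form that the fit assumes. It therefore does not measure the rate of false calls in the real data.

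A bound sets the bright group's mean against, on each array, the higher of the lowest signal well above background and the probe's own signal. The genes named are checks of the labels, the 15 lowest and 15 highest (outside muscle lists) that were called, at least 2-fold and above background on all 6 arrays, up to 8 bounds each way and up to 4 members per list and direction, shown in part, and other list members were chosen after their values were seen. Gene lists and members were chosen with earlier results of these data known. A normexp alternative used the median signal, since the mean signal was not used here, and replaced the local background of spots marked as background outliers by the array's median. Promoter matches use the first listed start of each gene in RefSeq, and 9864 tested genes had one. Some genes and 1 gene list are not reported here.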

Additional observations from a re-analysis of the deposited data

Results flagged for a closer look

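Probes without a gene name were outside the comparisons and also carried signal. Of 6150 such probes in the same fit, 435 were called higher and 450 lower with MyoD in shLuc cells, 244 and 90 of them by at least 2-fold. A further reading without a test, chosen only on detection, found 54 of them well above background on all MyoD arrays and on no empty-vector shLuc array. Among those well above background on all 6 shLuc arrays, the unnamed probe with the highest log2 change, A_51_P155458, rose by 9.33 ± 0.23, and the one with the lowest, A_52_P653054, fell by 1.51 ± 0.24 (SE). Groups of 3 arrays are too small for a search for single outlying samples.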

How the results depend on the processing

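Counts of calls depended most on the slide. Without the replicate block 598 genes were called higher and 163 lower in shLuc cells, all of them also called with it, and 358 higher and 13 lower in shSix4 cells. The difference between the lines gave 0 calls in both fits. The authors' deposited table, which covers 2634 of the genes, gave 258 higher and 394 lower, and no filter on dim probes gave 967 lower among 17178 genes. Leaving out an array or a slide gave 529 to 1293 higher and 96 to 1280 lower, with the lowest of each without slide 3. Vamp2 turned to 0.26 in the authors' deposited table and to 0.069 with the mean of its probes. Of 241 genes in reach of the naming rule, all called, 97 kept their call in all 9 fits that left out an array or a slide. Of genes changed at least 2-fold, the authors' deposited table gave 122 higher and 55 lower. The other alternatives kept both counts of calls, though not those at 2-fold, within 1.5 times: random block, 6 arrays, median centring, quantile, normexp, probes above background on all 12 arrays, mean of probes, outlier spots kept and robust eBayes. Array signal near background limits the lower side, since 20 lower genes could be given only a bound. Causes were not tested.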
